A study of Schizosaccharomyces pombe with 8 samples.

Results

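Reductive iron uptake and its control were followed through 6 genes of the fission yeast Schizosaccharomyces pombe, out of 4940 genes measured on 1-colour NimbleGen expression arrays. The genes were matched by their systematic names, and no value entered that rule. Earlier results of these data were known when the genes were chosen. They are fio1 (SPAC1F7.08), fip1 (SPAC1F7.07c), frp1 (SPBC1683.09c) and frp2 (SPBC947.05c) for uptake, and fep1 (SPAC23E2.01) and php4 (SPBC16E9.01c) for control. All 6 were measured by 14 probes each and all 6 entered every test.

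In reductive uptake, a ferric reductase of the cell surface (Frp1, with Frp2 as its relative) turns ferric iron into ferrous iron. The multicopper oxidase Fio1 and the permease Fip1, which act as a complex, then carry the iron across the plasma membrane. The GATA-type repressor Fep1 keeps uptake genes silent while iron is plentiful. When iron is scarce, Php4 joins the CCAAT-binding complex and lowers the transcription of genes whose products use or store iron, and php4 is itself under Fep1.

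There were 4 strains with 2 arrays each, and each array came from its own culture. The 3 disruptants were derived from the wild type PR110, and every strain was h+ with leu1-32 and ura4-D18. The disruptants carried pka1::ura4 (strain YMP37, Δpka1, which lacks the catalytic part of the cAMP-dependent kinase), cgs1::ura4 (YMP41, Δcgs1, which lacks the regulatory part of that kinase) and ppt1::kanMX6 (OG1, Δppt1). By its probes, ppt1 here is SPAC56F8.04c, whose enzyme joins the isoprenoid tail to p-hydroxybenzoate on the way to coenzyme Q. Cells grew for 8 hours at 30 °C in 50 mL of the rich medium YES, for which the labels name no iron treatment, and were taken in logarithmic phase. Each disruptant is a single strain.

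Signals of cgs1 in Δcgs1 (1404 and 1360) and of ppt1 in Δppt1 (2497 and 1910) lay at least 9.57-fold and at least 14.8-fold below wild type. Signal for pka1 was not lower on the arrays labelled Δpka1 (38387 and 46832) than in wild type (28743 and 34715). These arrays are therefore called labelled Δpka1, and any direction drawn from them rests on that label. They do carry the marker ura4, which wild type and Δppt1 lack, so for labelled Δpka1 and Δcgs1 against wild type the marker cannot be told apart from the disruption. The same limit holds for kanMX6 in Δppt1 against wild type. Labelled Δpka1 and Δcgs1 differ from Δppt1 in both markers. The titles of all replicate 1 arrays end in one number and those of all replicate 2 arrays in another, and each such group is called an array set here. Array medians were 21210 to 22148 in set 1 and 24677 to 25548 in set 2.

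A signal is an intensity in the linear units of the deposited tables. The highest signal of a deleted gene, 2497, was taken as the background limit, and the highest value on the arrays was 65239. A higher signal from more cells with the transcript and one from more transcript per cell cannot be told apart. Signals of the 6 iron genes ran from 5534 to 63004, so none lay at background. A gene was called where limma's moderated test gave an adjusted p below 0.05 over all 4940 genes. Each log2 fold change comes with a standard error (SE). Signals are compared between strains for the same gene and never between genes. Whether the arrays of compared strains overlap is given only as a description of the readings. It was not counted over all genes, and with so few arrays a lack of overlap can arise by chance.

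Δppt1 was set against wild type, which asks which transcripts respond to the loss of coenzyme Q synthesis. All 4 genes of reductive uptake were higher in Δppt1, fio1, fip1 and frp1 by about 4-fold and frp2 by about 2-fold. Neither regulator gene was called. Over all genes, 1.01% were called in this comparison, 0.688% higher (34 genes) and 0.324% lower (16 genes), beside 4 of the 6 iron genes called higher. Matching array medians gave 161 higher and 177 lower, quantile normalization 322 and 376, and cyclic loess 316 and 326. The median log2 fold change was 1.99 over the 4 uptake genes and -0.02 over all genes.

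The oxidase gene fio1 read 60921 and 57645 in Δppt1, against wild-type readings of 13255 and 15062. Both Δppt1 arrays lay far above both wild-type arrays. The difference was 4.19-fold (log2 fold change 2.07, SE 0.12, limma adjusted p = 0.000571), with a 95% confidence interval from 1.79 to 2.35 on the log2 scale. Its permease partner fip1 read 63004 and 59844 in Δppt1, against wild-type readings of 12952 and 16381. Again the strains did not overlap, and the difference was 4.22-fold (2.08, SE 0.15, adjusted p = 0.0013, interval 1.73 to 2.43).

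The ferric reductase gene frp1 read 57243 and 60895 in Δppt1, against wild-type readings of 14694 and 16938, a 3.74-fold difference (1.90, SE 0.11, adjusted p = 0.000571, interval 1.64 to 2.17). Among log2 fold changes of all genes in this comparison, from the highest, fip1 ranked 10, fio1 11 and frp1 12. In Δppt1 all 3 genes lay within 10% of the top of the intensity range (65239), which compresses folds, so their order is not fixed. The other reductase gene frp2 read 11793 and 13732 in Δppt1, against wild-type readings of 5534 and 6764, and again did not overlap. It was higher by 2.08-fold (1.06, SE 0.13, adjusted p = 0.0189, interval 0.75 to 1.36).

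The call of frp2 was the least firm of the 4. It was kept with the array set as a block (adjusted p = 0.00329), in a fit that called 12.9% of all genes. It was lost in a fit to the arrays of these strains alone (adjusted p = 0.0788). It was also lost without replicate 1 of Δppt1 (1.17, adjusted p = 0.0557), without its replicate 2 (0.95, adjusted p = 0.129) and without replicate 1 of wild type (0.91, adjusted p = 0.0682), and kept without replicate 2 of wild type (1.201, adjusted p = 0.0268). The calls of fio1, fip1 and frp1 were kept in all 4 of these fits, with adjusted p from 0.00251 to 0.0212 by limma.

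The repressor gene fep1 read 37260 and 39634 in Δppt1, against wild-type readings of 35339 and 42738. The Δppt1 arrays fell inside the wild-type range, and the log2 difference was -0.02 (SE 0.14, adjusted p = 1, interval -0.36 to 0.33). For php4, the gene of the other regulator, readings were 32462 and 38861 in Δppt1, with 25469 and 31379 for wild type. The arrays of the 2 strains did not overlap. It was not called (0.33, SE 0.17, adjusted p = 0.717, interval -0.07 to 0.73). With the array set as a block it was called higher (adjusted p = 0.0392), in a fit that called 12.9% of all genes (5.53% higher, 7.35% lower) and 5 of the 6 iron genes. Within sets, php4 differed by 0.35 in set 1 and 0.31 in set 2.

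**Figure D1:**
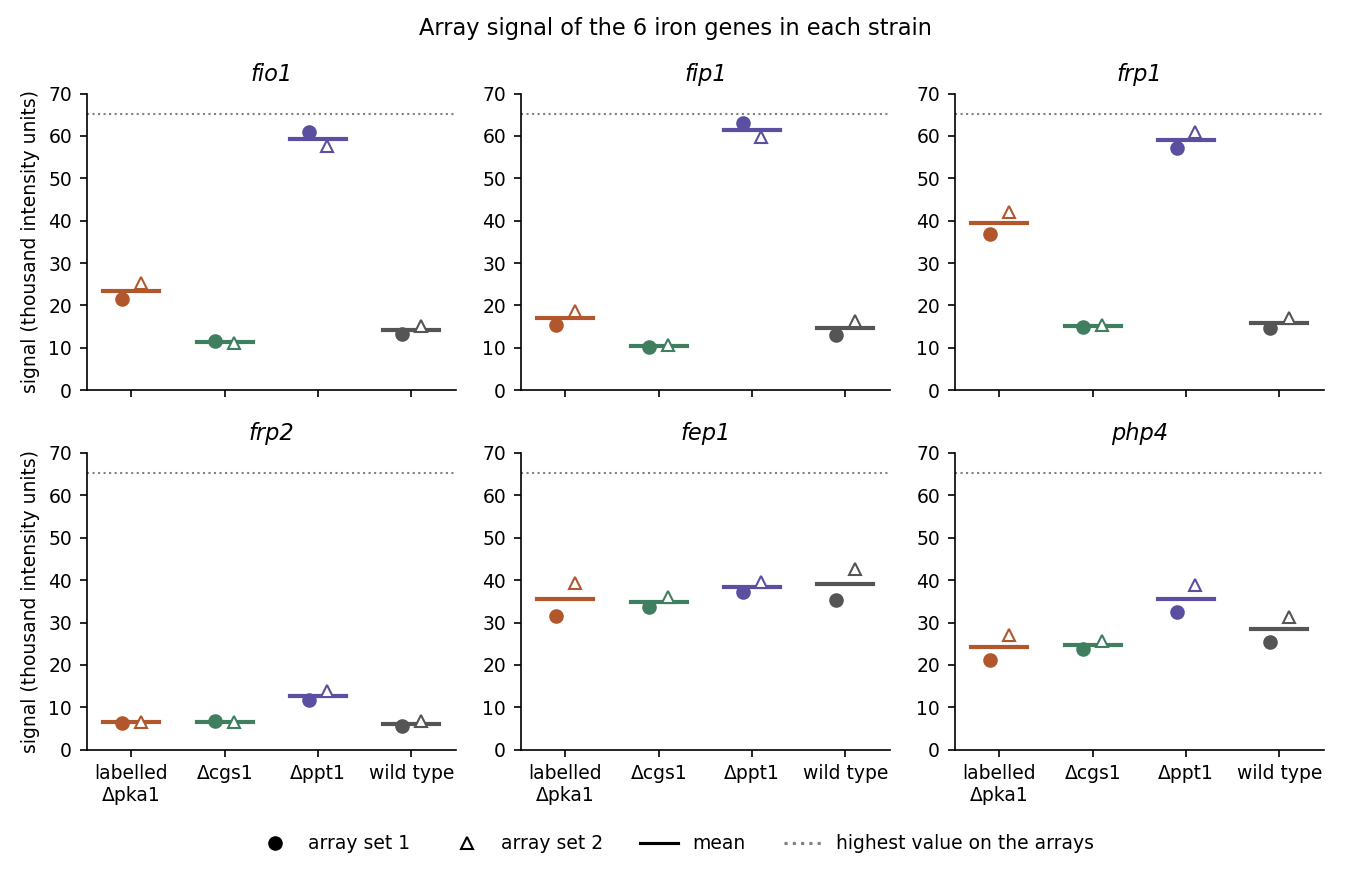
Signal of each of the 6 iron genes (vertical axis, kilounits of intensity) in labelled Δpka1, Δcgs1, Δppt1 and wild type, with a circle for array set 1, a triangle for set 2, a bar for the mean of the 2 arrays and a dotted line at the highest value on the arrays, 65239. The Δppt1 arrays of fio1, fip1 and frp1 sit between 57243 and 63004, close to the dotted line, and frp1 in labelled Δpka1 sits at 36743 and 42031.

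Labelled Δpka1 was set against wild type, which asks what the loss of the catalytic part of the kinase changes, with the limit on the label given above. The reductase gene frp1 and the oxidase gene fio1 were higher, and the other 4 iron genes were not called. Over all genes 8.46% were called, 4.33% higher and 4.13% lower, beside 2 of the 6 iron genes called higher. The median log2 fold change was 0.47 over the 4 uptake genes and -0.04 over all genes.

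Signal for frp1 was 36743 and 42031 in labelled Δpka1, against 14694 and 16938 in wild type. The strains were well separated, and the sets gave almost the same log2 difference, 1.32 and 1.31. The fold was 2.49 (log2 fold change 1.32, SE 0.11, limma adjusted p = 0.000809, interval 1.05 to 1.59). Leaving out any array of the pair kept its call, with adjusted p from 0.0026 to 0.008.

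For fio1, readings were 21467 and 25267 in labelled Δpka1 and 13255 and 15062 in wild type. The strains did not overlap, and the fold was 1.65 (0.72, SE 0.12, adjusted p = 0.0127, interval 0.44 to 1.00). The call was lost without replicate 2 of labelled Δpka1 (0.60, adjusted p = 0.0815) and in a fit to the arrays of these strains alone (adjusted p = 0.0647), and kept with any other array of the pair left out.

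The permease gene fip1, next to fio1 on the chromosome, read 15363 and 18686 in labelled Δpka1, against 12952 and 16381 in wild type. These ranges overlapped, and it was not called (0.22, SE 0.15, adjusted p = 0.477, interval -0.13 to 0.57). Within sets, fip1 differed by 0.246 in set 1 and 0.19 in set 2. With the array set as a block fip1 was not called either (adjusted p = 0.177). The log2 ratio of fio1 to fip1 within an array, which has meaning only between strains, was 0.48 and 0.43 in labelled Δpka1, 0.17 and 0.06 in Δcgs1, -0.05 and -0.05 in Δppt1, with 0.03 and -0.12 for wild type. Both labelled Δpka1 arrays thus lay above the other 6 arrays in this ratio, a property not counted over other gene pairs. In Δppt1 both genes read within 10% of the top value, so the ratio there is compressed. The difference between the 2 genes was not tested.

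The remaining iron genes overlapped between labelled Δpka1 and wild type, a property not counted over all genes. Signal for frp2 was 6380 and 6569 in labelled Δpka1, within the wild-type readings of 5534 and 6764 (0.08, SE 0.13, adjusted p = 0.818). For fep1, readings were 31527 and 39337 in labelled Δpka1 and 35339 and 42738 in wild type, which overlapped (-0.14, SE 0.14, adjusted p = 0.683). The php4 readings of 21137 and 27121 in labelled Δpka1 and 25469 and 31379 in wild type overlapped as well (-0.24, SE 0.17, adjusted p = 0.505). With the array set as a block php4 was called lower (adjusted p = 0.0414), in a fit that called 38.6% of all genes (14.7% higher, 24.0% lower). The log2 difference of php4 was -0.27 in set 1 and -0.21 in set 2.

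Δcgs1 was set against wild type, which asks what changes when the regulatory subunit of the kinase is missing. None of the 6 iron genes was called by limma, with or without the array set as a block. Over all genes 0.142% were called, 0.081% higher (4 genes) and 0.0607% lower (3 genes), and 115 genes had an unadjusted p below 0.05. With the block it was 0.83% (0.648% higher, 0.182% lower). Matching array medians gave 28 genes higher and 11 lower, quantile normalization 44 and 25, and cyclic loess 43 and 20. Of the 6, fio1 and fip1 had an unadjusted p below 0.05.

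The oxidase gene fio1 read 11610 and 11214 in Δcgs1, against wild-type readings of 13255 and 15062. Both Δcgs1 arrays lay below both wild-type arrays, with a log2 difference of -0.31 (SE 0.12, unadjusted p = 0.0339 and adjusted p = 1 by limma, interval -0.58 to -0.03). The permease gene fip1 read 10309 and 10737 in Δcgs1, against wild-type readings of 12952 and 16381, again without overlap (-0.47, SE 0.15, unadjusted p = 0.0159, adjusted p = 1, interval -0.82 to -0.12). It was called lower after quantile normalization (-0.53, adjusted p = 0.0132) and after cyclic loess normalization (-0.50, adjusted p = 0.0487).

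The other 4 iron genes overlapped between Δcgs1 and wild type, with no count of overlap over all genes to set beside this. The reductase genes read 14980 and 15299 (frp1) and 6660 and 6604 (frp2) in Δcgs1, with log2 differences of -0.06 (SE 0.11, interval -0.33 to 0.21) and 0.12 (SE 0.13, interval -0.19 to 0.42). The regulator genes read 33542 and 36117 (fep1) and 23848 and 25720 (php4) in Δcgs1. Their log2 differences were -0.16 (SE 0.14, interval -0.50 to 0.19) and -0.19 (SE 0.17, interval -0.59 to 0.21), and the adjusted p of all 4 genes was 1. Together these intervals reach no lower than -0.59 and no higher than 0.42.

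**Figure D2:**
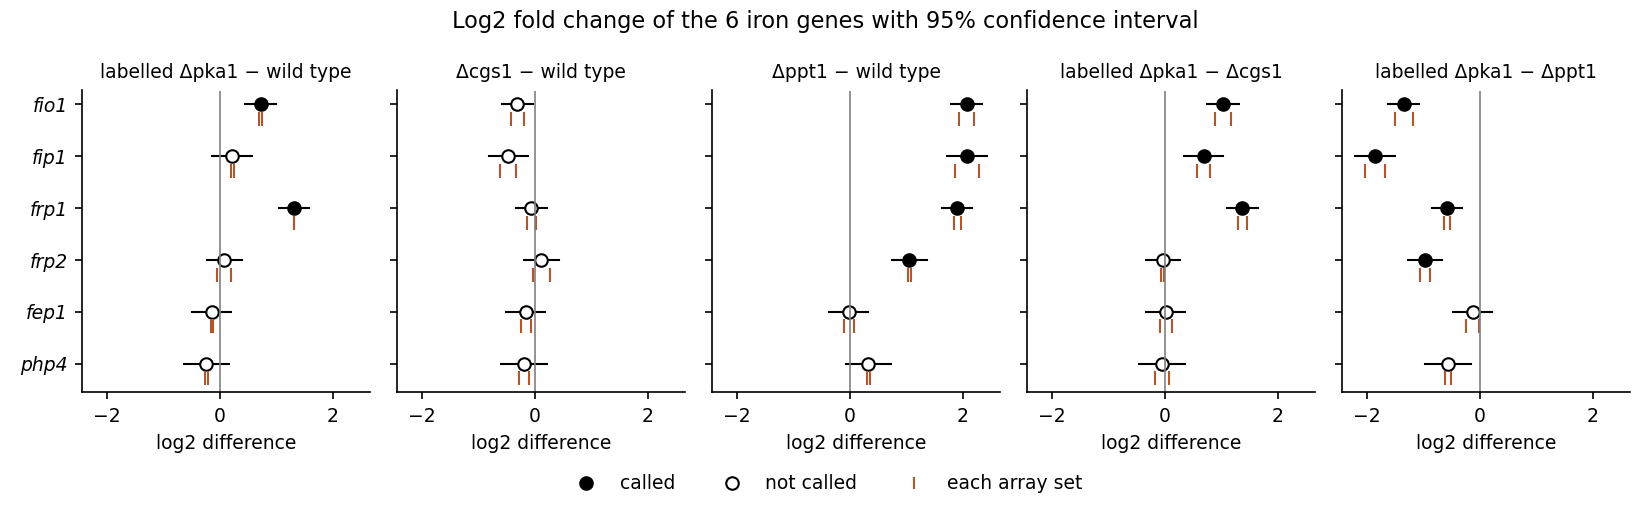
Log2 difference (horizontal axis) of each iron gene in 5 comparisons, with a circle at the limma estimate, filled where called, a line for its 95% confidence interval and short ticks for the difference in each array set. In Δppt1 against wild type the 4 uptake genes lie between 1.06 and 2.08, while no circle is filled in Δcgs1 against wild type.

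Disruptants were also set against each other. Labelled Δpka1 and Δcgs1 both carry ura4, so this comparison is free of the marker. The uptake genes frp1, fio1 and fip1 were higher in labelled Δpka1 than in Δcgs1, where 10.3% of all genes were called (4.37% higher, 5.97% lower). With the array set as a block the same 3 were called, beside 41.3% of all genes (12.5% higher, 28.8% lower). The log2 differences were 1.38 for frp1 (SE 0.11, adjusted p = 0.000538), 1.03 for fio1 (SE 0.12, adjusted p = 0.00248) and 0.69 for fip1 (SE 0.15, adjusted p = 0.0333), and in each case the arrays did not overlap. The call of fip1 was lost with any array of the pair left out (adjusted p from 0.0543 to 0.154). Log2 differences of the other 3 genes were -0.03 for frp2 (interval -0.34 to 0.27), 0.02 for fep1 (interval -0.33 to 0.36) and -0.05 for php4 (interval -0.45 to 0.35), with adjusted p from 0.939 to 0.98. Arrays of frp2 did not overlap all the same, so a lack of overlap alone does not mark a difference.

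Labelled Δpka1 lay below Δppt1 in all 4 uptake genes, in a comparison that called 9.6% of all genes (5.04% higher, 4.55% lower). The log2 difference was -1.86 for fip1 (SE 0.15, adjusted p = 0.00047), -1.35 for fio1 (SE 0.12, adjusted p = 0.000647), -0.97 for frp2 (SE 0.13, adjusted p = 0.00422) and -0.59 for frp1 (SE 0.11, adjusted p = 0.0219). Since Δppt1 read near the highest value in fio1, fip1 and frp1, these differences are compressed. The call of frp1 was lost with any array of the pair left out (adjusted p from 0.051 to 0.134). The regulator genes were not called, fep1 at -0.13 (adjusted p = 0.734) and php4 at -0.57 (adjusted p = 0.0956). The php4 arrays did not overlap, and with the array set as a block php4 was called lower (adjusted p = 0.00278, in a fit that called 38.5% of all genes, 16.1% higher and 22.4% lower).

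Δcgs1 lay below Δppt1 in the same 4 genes, where 1.78% of all genes were called (0.87% higher, 0.911% lower). The log2 difference was -2.54 for fip1, -2.38 for fio1 and -1.96 for frp1 (adjusted p from 0.000222 to 0.000424), and -0.94 for frp2 (SE 0.13, adjusted p = 0.0198). Those of fip1, fio1 and frp1 are compressed, as Δppt1 read near the highest value there. The call of frp2 was lost with any array of the pair left out (adjusted p from 0.0691 to 0.151). Log2 differences of the regulator genes were -0.14 for fep1 (adjusted p = 0.85, arrays without overlap) and -0.52 for php4 (adjusted p = 0.261), and php4 was called lower with the array set as a block (adjusted p = 0.00984, in a fit that called 20.5% of all genes, 14.3% higher and 6.28% lower). Every comparison that shares a strain shares its arrays, so these results are not independent of those against wild type.

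By strain means, fio1 had the order Δppt1 (59283 ± 2317, SD, n = 2 here and below), labelled Δpka1 (23367 ± 2686), wild type (14159 ± 1278) and Δcgs1 (11412 ± 280). Only the last pair of neighbours in that order was not called. For frp1 the order was the same, Δppt1 (59069 ± 2582), labelled Δpka1 (39387 ± 3740), wild type (15816 ± 1587) and Δcgs1 (15139 ± 225), with overlapping arrays in the last pair alone. For fip1 it was again Δppt1 (61424 ± 2235), labelled Δpka1 (17024 ± 2350), wild type (14666 ± 2424) and Δcgs1 (10523 ± 303). Here labelled Δpka1 and wild type overlapped, and wild type and Δcgs1 did not overlap but were not called.

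For frp2, Δppt1 (12763 ± 1372) stood apart, and the order below it was Δcgs1 (6632 ± 39), labelled Δpka1 (6475 ± 134) and wild type (6149 ± 870). No call was made among these 3. Both arrays of Δcgs1 lay above those of labelled Δpka1, and both strains lay inside the wild-type range. For fep1, no neighbours in the order wild type (39039 ± 5232), Δppt1 (38447 ± 1679), labelled Δpka1 (35432 ± 5523) and Δcgs1 (34829 ± 1821) were called. For php4, Δppt1 (35662 ± 4525) was highest, then wild type (28424 ± 4179), Δcgs1 (24784 ± 1324) and labelled Δpka1 (24129 ± 4232), also with no call between neighbours. With the array set as a block, Δppt1 was called above wild type (limma adjusted p = 0.0392). Within a strain, the array of set 2 read higher than that of set 1 for fep1 and php4 in all 4 strains, as did the array medians.

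**Figure D3:**
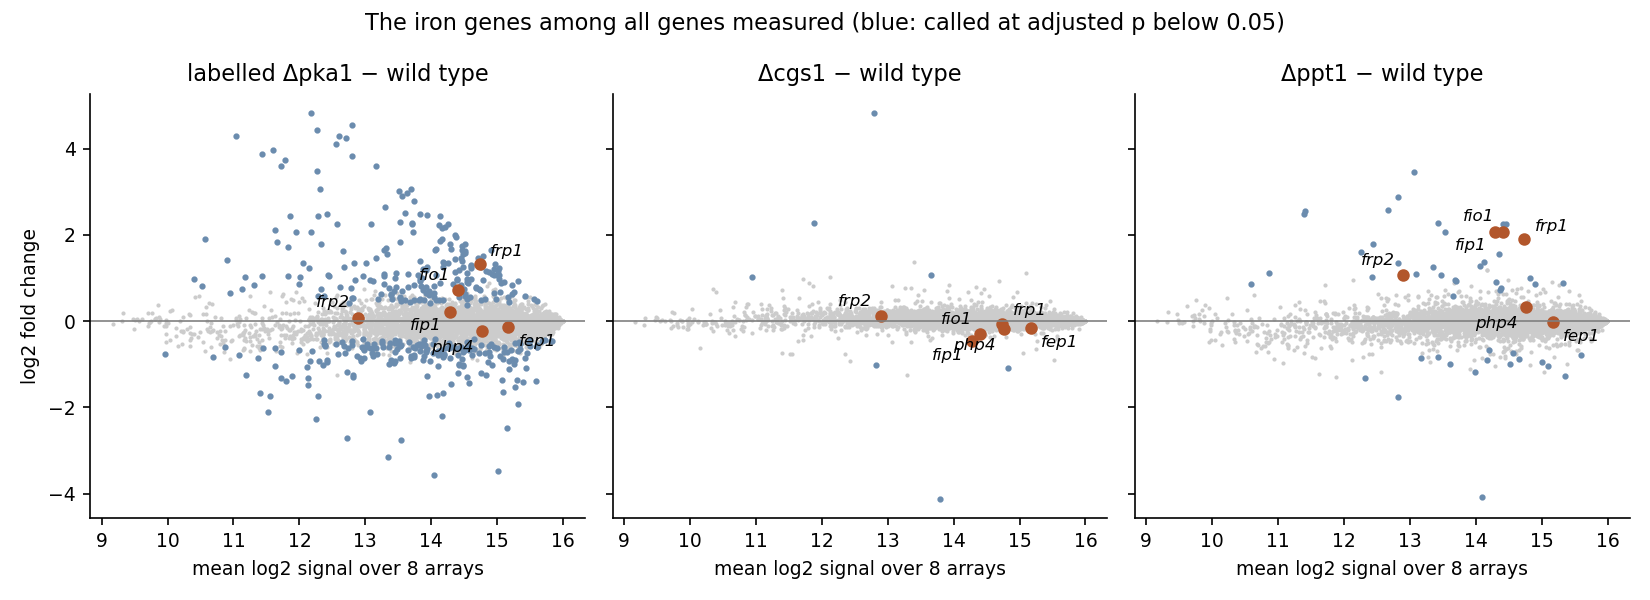
Log2 fold change against wild type (vertical axis) by mean log2 signal over the 8 arrays (horizontal axis) for all 4940 genes, with called genes in blue, other genes in grey and the 6 iron genes in orange. In Δppt1, fio1, fip1 and frp1 stand at about 2 among few blue points, whereas frp1 in labelled Δpka1 (1.32) lies among many blue points.

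The rest of iron handling was read from 5 further lists, which hold 46 measured genes apart from the 6 (isa1 stands in 2 of them). In Δppt1 against wild type, limma called 3 of these 46 higher and 1 lower, beside 0.688% and 0.324% of all genes. In labelled Δpka1 it called 2 of 46 higher and 0 lower, beside 4.33% and 4.13% of all genes, so the higher count is near the rate of all genes. In Δcgs1 it called 0 of 46, beside 0.142% of all genes. The list of siderophore and haem uptake had 7 genes. In Δppt1, 3 of them were called higher, 7 of 7 lay above 0 and their median log2 fold change was 0.85, against -0.02 over all genes. With the array set as a block 6 of the 7 were called higher, beside 5.53% of all genes. Of the 7, str1 read 62638 and 64325 in Δppt1, near the highest value, against 46421 and 50866 in wild type. Its log2 difference (0.385, not called without the block) is therefore compressed.

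Among these 7, str3, a transporter of the siderophore family that takes up haem, read 52509 and 56377 in Δppt1, against wild-type readings of 4320 and 5768. That was the highest log2 fold change of all genes in the comparison (3.45, SE 0.16, adjusted p = 0.000458). The haem receptor gene shu1 read 9719 and 11218 in Δppt1, against wild-type readings of 1737 and 1847, which is at background, so it was at least 4.18-fold higher (adjusted p = 0.000458). The vacuolar transporter gene abc3 read 45799 and 49257 in Δppt1, against wild-type readings of 21832 and 26001 (0.995, SE 0.15, adjusted p = 0.0457). The call of abc3 was lost with any array of the pair left out (adjusted p from 0.0946 to 0.262), and those of str3 and shu1 were kept.

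Of 16 genes of iron storage and iron-using proteins, 1 was called lower in Δppt1 and 0 higher. It was rip1, the iron-sulfur subunit of respiratory complex III, with 30712 and 34787 in Δppt1, against wild-type readings of 55480 and 57665 (-0.79, SE 0.10, adjusted p = 0.0189). The call was lost with any array of the pair left out (adjusted p from 0.086 to 0.134). In all, 1 of the 16 lay above 0, the median was -0.15, and 5 of 16 were called lower with the array set as a block, beside 7.35% of all genes. In the lists of iron-sulfur cluster assembly (10 genes), copper supply (6 genes) and partners of the regulators (8 genes) 0 were called in Δppt1, with medians of -0.04, 0.06 and -0.05. The largest values were -0.31 for the scaffold gene nfu1, -0.40 for the copper transporter gene ctr5 and -0.39 for fra2, a partner of the glutaredoxin Grx4 in Fep1 control. With the array set as a block 1 copper gene was called lower and 1 partner gene higher, beside 7.35% and 5.53% of all genes. In wild type ctr4, ctr5 and etp1 of these lists, and sdh1, tim18 (synonym sdh4), cyc1, cyt1, aco1, lys4, ilv3 and glt1 of the iron-using list, read within 10% of the top value. A rise or a fall in them would therefore be compressed.

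In labelled Δpka1, 0 of the 7 siderophore and haem genes were called against wild type (median 0.14, largest value 0.35 for the siderophore synthesis gene sib2), and 2 were called higher with the array set as a block, beside 14.7% of all genes. The transporter gene str1 stood close to sib2 at 0.348. It read 60026 and 63720 in labelled Δpka1, near the highest value, against 46421 and 50866 in wild type, so its difference is compressed. Of the 16 iron-using genes, the catalase gene ctt1 (0.84, SE 0.15, adjusted p = 0.0165) and the ferrochelatase gene hem15 (0.41, SE 0.10, adjusted p = 0.0495) were higher. Catalase read 62881 and 64437 in labelled Δpka1, near the highest value, against 33045 and 38036 in wild type. For hem15 the readings were 18216 and 20834 in labelled Δpka1, against 14280 and 15001 in wild type. The call of ctt1 was lost without either labelled Δpka1 array or without replicate 1 of wild type (adjusted p up to 0.0922), and that of hem15 with any array of the pair left out (adjusted p up to 0.224).

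The lists of iron-sulfur assembly, copper supply and partners had 0 calls in labelled Δpka1, with the largest values at -0.57 for the glutaredoxin gene grx5, -0.60 for ctr5 (adjusted p = 0.0527) and -0.49 for fra2. With the array set as a block, 3 copper genes, 3 partner genes and 2 assembly genes were called lower and 1 assembly gene higher, beside 24.0% of all genes lower and 14.7% higher. In Δcgs1 the 46 genes had 0 calls. The largest value belonged to the ferrichrome transporter gene str1, with 23103 and 29459 in Δcgs1, against wild-type readings of 46421 and 50866 (-0.90, SE 0.13, adjusted p = 0.113). Its arrays did not overlap, and str1 was called lower with the array set as a block (adjusted p = 0.0189), in which sib2 was called higher (0.39, adjusted p = 0.0275). The lists' other largest values in Δcgs1 were 0.24 for isa2, -0.21 for ctt1, -0.12 for grx4 and 0.09 for ccc2.

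**Figure D4:**
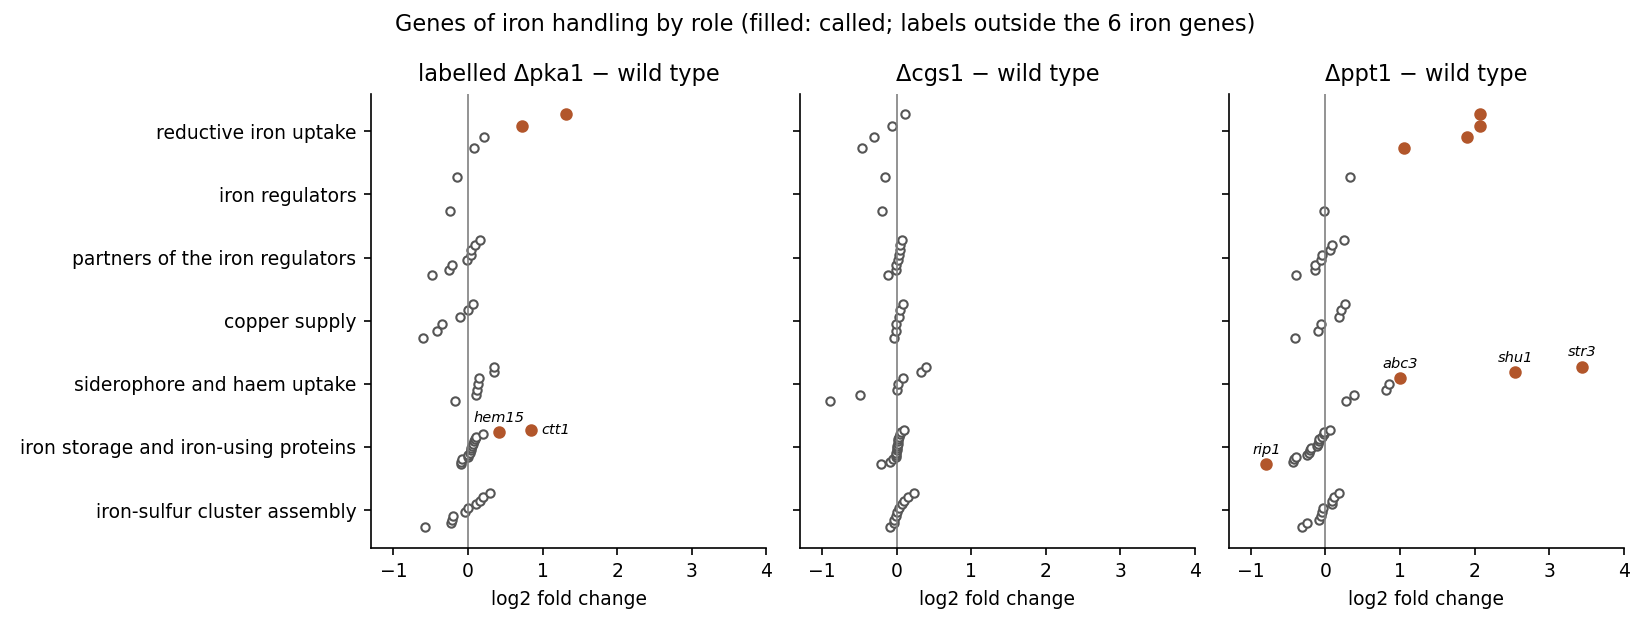
Log2 fold change against wild type (horizontal axis) of the 6 iron genes and 46 further genes by role, 1 point a gene, filled where called. In Δppt1 the reductive uptake genes stand between 1.06 and 2.08 and str3 at 3.45, with rip1 at -0.79 as the filled point on the left.

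Between disruptants, str1 (1.25) and ctt1 (1.06) were higher and ctr5 lower (-0.63) in labelled Δpka1 than in Δcgs1. The brighter side of each lay within 10% of the top value (str1 and ctt1 in labelled Δpka1, ctr5 in Δcgs1), so these differences are compressed. Compared with Δppt1, labelled Δpka1 was lower in str3, shu1, abc3 and the copper chaperone gene atx1 (-0.63), and higher in ctt1 (1.05), rip1 and the vacuolar iron transporter gene pcl1 (0.44), and those 3 read near the top value in labelled Δpka1. Δcgs1 was lower than Δppt1 in str1 (-1.28, compressed, since Δppt1 read near the top value), str3, shu1 and abc3, and higher in rip1. The adjusted p of these 15 calls, by limma, lay at or below 0.0405. Of them, ctr5, pcl1, atx1, rip1 in Δcgs1 and abc3 in Δcgs1 were lost with any array of the pair left out, with adjusted p from 0.0586 to 0.22. The call of abc3 in labelled Δpka1 was lost without replicate 1 of that strain or either array of Δppt1 (adjusted p up to 0.0943), and that of str1 in Δcgs1 without either array of Δppt1 (adjusted p up to 0.0665).

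The genes whose strain pattern was most like that of each iron gene were found by the distance between the 6 log2 differences to wild type, 3 disruptants in 2 array sets, so a small distance means a like pattern. The nearest of the 4147 genes with a symbol were, for fio1, fip1 (0.76), frp1 (0.95) and the mitochondrial transporter gene mmt1 (1.23). For fip1 they were fio1 (0.76), osr1 (1.05) and the sulfiredoxin gene srx1 (1.10), and for frp1 they were fio1 (0.95), the sulfate transporter gene sul2 (1.14) and etr1 (1.37). Thus fio1 and fip1 were each other's nearest gene, and frp1 was nearest to fio1. All 3 read within 10% of the top value in Δppt1, which compresses differences that enter these distances. Its effect on the distances was not tested.

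The like genes, here and below, were picked by their differences to wild type, those in Δppt1 included. Their calls therefore follow in part from that choice and are given as description only. The sulfiredoxin gene srx1 read 24743 and 28888 in Δppt1, against wild-type readings of 4020 and 4970 (2.58, adjusted p = 0.000458), and sul2 read 49319 and 53159 in Δppt1, against wild-type readings of 9774 and 11813 (2.25, adjusted p = 0.000571). The gene osr1 (2.27, adjusted p = 0.0189) and mmt1 (1.35, adjusted p = 0.0454) were also higher, and etr1 was not called (0.95, adjusted p = 0.108, and 0.00608, higher, with the array set as a block). In labelled Δpka1, sul2 (1.195) and etr1 (1.25) were higher than in wild type. There srx1 (-0.24), osr1 (-0.12) and mmt1 (0.35) were not called, though mmt1 was called higher with the array set as a block (adjusted p = 0.0144).

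For frp2 the nearest genes were abc3 (0.35), the F-box gene pof1 (0.39) and sib1 (0.49), which makes siderophore. Of these, abc3 and pof1 (0.91, adjusted p = 0.0357) were called higher in Δppt1, and sib1 was not (0.82, adjusted p = 0.0954, and 0.00156 with the array set as a block). For fep1 they were app1 (0.09), rcd1 (0.09) and ssl3 (0.11), and for php4 mdm35 (0.20), dap1 (0.21) and sds3 (0.22). These 6 were picked for differences close to those of fep1 or php4. Without the array set as a block, none of them was called against wild type in any disruptant. With it, mdm35, dap1 and sds3 were called lower in labelled Δpka1 (adjusted p from 0.0138 to 0.0354), and dap1 (0.0165) and sds3 (0.0363) higher in Δppt1. Distances are small for any gene that changes little. Seen from fio1, frp2 stood at place 13, php4 at place 242 and fep1 at place 1974.

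Genes next to the 6 on the chromosome were read as a check on whole regions, from the order of genes in a RefSeq table. The genes fip1 and fio1 are neighbours, flanked by hsp3105 and the allantoicase gene dal2. Neither flanking gene was called in Δppt1 (-0.25 and 0.17), in labelled Δpka1 (0.01 and 0.13) or in Δcgs1 (-0.04 and 0.08). The gene frp1 lies between the hexose transporter gene ght4 and pcl1. In labelled Δpka1, ght4 read 48369 and 56193 against 8043 and 11062 in wild type (2.47, SE 0.18, adjusted p = 0.000382), beside the rise of frp1, and pcl1 was not called (0.04). In Δppt1, ght4 was not called (0.26), while pcl1 read 40781 and 46620, against 56181 and 58933 in wild type (-0.40, adjusted p = 0.177, and 0.0118, lower, with the array set as a block).

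The gene frp2 lies between SPBC947.06c and the flocculin gene pfl3. Signal for pfl3 was 13799 and 19712 in labelled Δpka1, against 42871 and 52561 in wild type (-1.52, SE 0.19, adjusted p = 0.00447), while frp2 was not called there. In Δppt1, where frp2 was higher, SPBC947.06c (-0.05) and pfl3 (0.26) were not called. The neighbours of fep1 (mre11 and lsd2) and of php4 (fmo1 and SPBC16E9.02c) were not called in any disruptant, with log2 differences from -0.18 to 0.17.

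**Figure D5:**
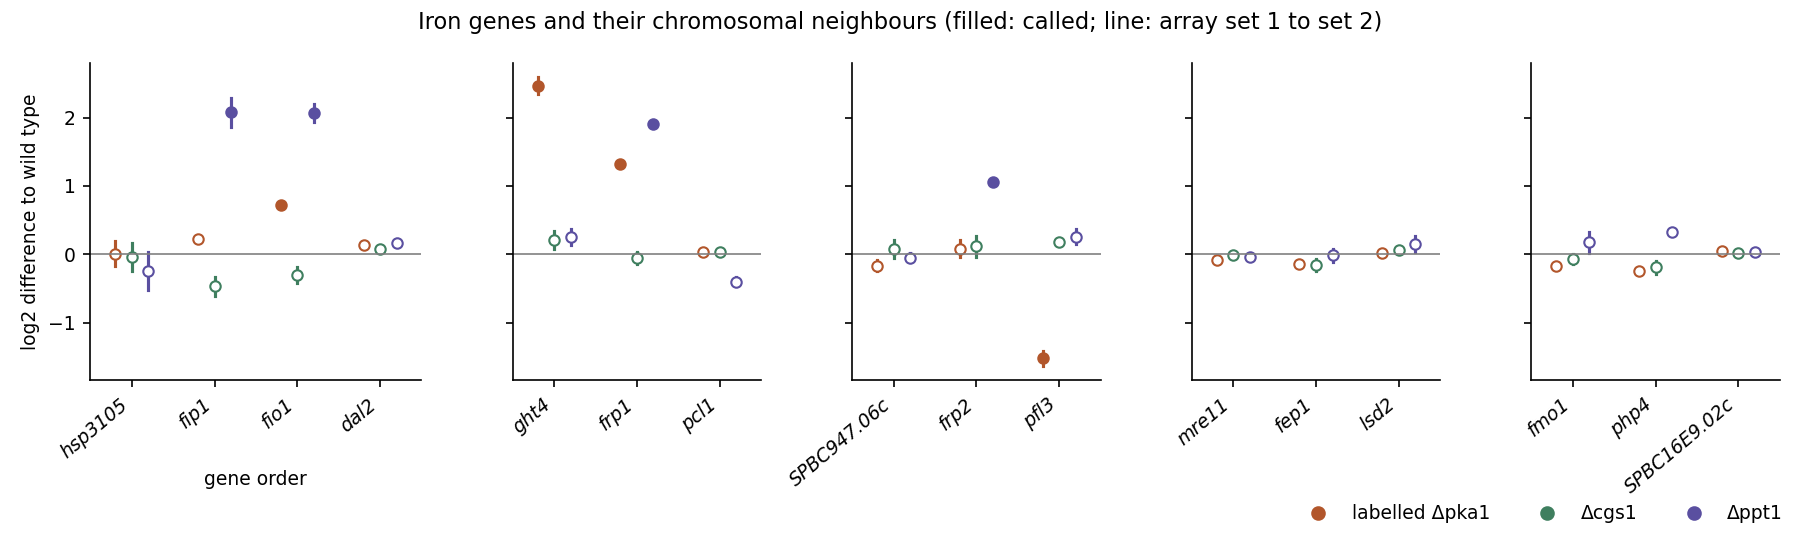
Log2 difference to wild type (vertical axis) of the iron genes and the genes beside them in chromosomal order, for labelled Δpka1, Δcgs1 and Δppt1, with a circle at the mean, filled where called, and a line between the differences of the 2 array sets. In Δppt1 fip1 and fio1 stand at about 2 while hsp3105 and dal2 stay near 0, and in labelled Δpka1 ght4 stands at 2.47 beside frp1 at 1.32.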

How the data were processed

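Intensity values were deposited by the authors, per the file headers 1 gene-level summary per array on a linear scale. A further column, treated here as a score, is per the file headers an error of unstated scale, and another gives the number of probes. Neither entered a test. The sources used here do not say how probes were summarised or arrays normalized. The deposited series table equals the array files (largest difference 0).

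Values were taken to log2 and fitted with limma 3.58.1 in R 4.3.3, 1 mean per strain on all 8 arrays (4 residual degrees of freedom), with two-sided p-values adjusted by Benjamini-Hochberg across 4940 genes in each of 6 comparisons. The fit was tested on simulated arrays drawn independently, with no array set effect and no upper limit of intensity. That test therefore does not cover these features of the data. The random-sequence control did not enter. Precision is limited by having 2 arrays per strain. The background limit is the highest signal of a deleted gene, chosen after the data were seen.

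Arrays with the same replicate number share the last number of their titles (an array set; the labels do not say what it is). Deviations of arrays of the same set correlated in all 6 strain pairs (r from 0.351 to 0.690), so the shared number was taken as a pairing, and blocking on the array set (residual degrees of freedom 3) was an alternative. In set 2, titles and table names give 3 arrays different positions, and the strain of the labels was used.

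The 6 genes and the lists were chosen with earlier results of these data known. All 6 genes are named in every comparison. From the lists, called genes are named, or the largest value where none was called, with the 3 most like genes and the neighbours on either side. Symbols came from RefSeq (ASM294v3), which held 4913 of the genes. One listed gene of iron-sulfur assembly (ssq1) was not matched.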

Additional observations from a re-analysis of the deposited data

How the results depend on the processing

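Of 36 log2 fold changes (6 genes in 6 comparisons), 17 were called. None of the 17 reversed under any alternative run, 15 kept their call in every alternative that used all arrays of both strains, and 12 kept it with each array left out in turn. Of the values not called, 7 became called with quantile normalization, 4 with cyclic loess and 3 with matched medians. The array set as a block gave 4 such calls and the variance trend 1. Of labelled Δpka1 against wild type, the number of iron genes called moved to 5 with quantile normalization (4 higher, 1 lower, in a fit that called 786 of all 4940 genes higher and 1023 lower) and to 1 in the fit to these strains alone, and lay between 1 and 2 with 1 array left out. In that comparison fio1 was 0.72 in the fit to these strains alone (adjusted p = 0.0647) and 0.60 to 0.84 with 1 array left out. Of Δcgs1 against wild type, 1 gene was called with quantile and 1 with cyclic loess normalization, fip1 both times (beside 69 and 63 of all genes). In Δppt1 against wild type frp2 was 1.06 in the fit to these strains alone (adjusted p = 0.0788) and 0.912 to 1.201 with 1 array left out. The cause of these changes was not tested, beyond that such fits rest on fewer arrays.

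Signs turned only for values not called, here on the log2 scale. With 1 array left out, labelled Δpka1 against wild type gave frp2 from -0.063 to 0.226 and fep1 from -0.302 to 0.017, and Δcgs1 against wild type gave frp1 from -0.162 to 0.043 and frp2 from -0.028 to 0.261. In Δppt1 against wild type fep1 was 0.007 with quantile and 0.010 with cyclic loess normalization, and lay from -0.153 to 0.121 with 1 array left out. In labelled Δpka1 against Δcgs1 frp2 was 0.006 with matched medians, 0.114 with quantile and 0.152 with cyclic loess normalization, and php4 was 0.036 with cyclic loess. There, with 1 array left out, php4 lay from -0.229 to 0.131 and fep1 from -0.143 to 0.177, and against Δppt1 fep1 lay from -0.286 to 0.034. Leaving out an array moved the median of all genes to between -0.161 and 0.147.

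With the replicate block (array set), which uses the pairing, php4 became called in Δppt1 against wild type (0.33, adjusted p = 0.0392), labelled Δpka1 against wild type (-0.24, adjusted p = 0.0414), labelled Δpka1 against Δppt1 (-0.57) and Δcgs1 against Δppt1 (-0.52), and the block changed no other call of the 6 genes. It raised the calls among all genes to 636 in Δppt1 against wild type (50 without it), 1908 in labelled Δpka1 (418) and 41 in Δcgs1 (7), and the median SE was 0.059 (0.143 without it). With medians matched between arrays the counts were 338, 1439 and 39, with quantile normalization 698, 1809 and 69, and with cyclic loess 642, 1733 and 63. With a variance trend they were 168, 688 and 30, and in fits to the compared strains alone 24, 236 and 3. For labelled Δpka1 against Δcgs1 the calls were 511, and 2041 with the block, 1435 with matched medians, 1844 with quantile, 1734 with cyclic loess and 789 with the trend. For labelled Δpka1 against Δppt1 they were 474, and 1903, 1436, 1838, 1799 and 677 under the same settings. For Δcgs1 against Δppt1 they were 88, and 1015, 545, 968, 881 and 227. With 1 array left out they lay between 181 and 387 for labelled Δpka1 against wild type, at 2 for Δcgs1 and between 13 and 30 for Δppt1, and between disruptants between 201 and 241, 250 and 273, and 20 and 27.

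For the 21 calls of other iron-handling genes, the same alternatives were added after the data were seen. None turned, and those lost with 1 array left out are given beside their values. In fits to the compared strains alone hem15, rip1 and abc3 lost their calls against wild type, and so did ctr5 in labelled Δpka1 against Δcgs1, pcl1 in labelled Δpka1 against Δppt1 and rip1 in Δcgs1 against Δppt1. Against wild type hem15 and abc3 also lost theirs with the lowest 10% of genes left out, and hem15 with the variance trend.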
